A study of Mus musculus with 2 samples.

Results

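The 9 genes described here encode 5 glutathione transferases (Gsta1, Gsta2, Gsta4, Gstm1 and Gstm3) and 4 glutathione peroxidases (Gpx1, Gpx2, Gpx3 and Gpx4), out of 52636 genes in each of 2 single-cell count matrices. They are a list of names, chosen by their measured levels in these same libraries, so the differences between the libraries are given as descriptions. The libraries were made from the gut of E18.5 mouse embryos (C57BL/6 background), 1 embryo per genotype. One embryo was Mlkl -/- and lacked the executor of necroptosis, and is called Mlkl-null. The other was Casp8 C362A/C362A Mlkl -/-, so that it lacked Mlkl too and carried caspase-8 with its catalytic cysteine replaced, and is called Casp8-mutant. With 1 embryo per genotype there is no replicate check and no test, and the 95% intervals given describe counting error alone. In each pair of values the Mlkl-null library comes first.

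Glutathione is the main small thiol of cells. Glutathione transferases join it to electrophiles such as drugs, food toxins and aldehydes from oxidised lipids, and the alpha class (Gsta) and mu class (Gstm) are detoxifying enzymes of liver and gut epithelium. Glutathione peroxidases use it to reduce hydrogen peroxide or lipid hydroperoxides: Gpx1 encodes the widespread cytosolic enzyme, Gpx2 the gastrointestinal epithelial enzyme, Gpx3 a secreted enzyme and Gpx4 the enzyme that acts on phospholipid hydroperoxides and restrains ferroptosis, an iron-dependent form of cell death.

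The 4 peroxidases share a feature that the choice of genes did not use: each is a selenoprotein, whose active site is selenocysteine, read from a TGA codon that would otherwise end translation. An in-frame TGA was found in the coding sequence of all 4 (GENCODE M21), at codon 47 of Gpx1, codon 40 of Gpx2, codon 73 of Gpx3 and codon 129 of the longest annotated coding transcript of Gpx4. None was found in the 5 transferases or in Gpx5, Gpx6, Gpx7 and Gpx8. The codon is shown in capitals with 30 bases to each side, to let the active sites be compared.
Gpx1: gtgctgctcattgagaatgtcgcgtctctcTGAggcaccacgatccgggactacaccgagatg
Gpx2: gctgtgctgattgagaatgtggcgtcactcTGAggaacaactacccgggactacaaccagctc
Gpx3: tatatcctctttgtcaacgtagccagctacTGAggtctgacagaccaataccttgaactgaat
Gpx4: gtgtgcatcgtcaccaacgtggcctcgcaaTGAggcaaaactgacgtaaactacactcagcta
The coding sequences of Gpx1 and Gpx2 were identical at 71.4% of aligned bases, and those of Gpx3 and Gpx4 at 61.6%. Among the transferases, Gsta1 and Gsta2 were identical at 97.9% and Gstm1 and Gstm3 at 89.5%.

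In mm10 coordinates, the alpha-class genes lie together on chromosome 9: Gsta4 at chr9:78182774-78209349 (+), Gsta1 at chr9:78230656-78242684 (+) and Gsta2 at chr9:78331018-78355788 (-). The mu-class genes lie together on chromosome 3: Gstm3 at chr3:107963696-107969283 (-) and Gstm1 at chr3:108012255-108017973 (-). The peroxidase genes are spread over 4 chromosomes, with Gpx1 at chr9:108338903-108340343 (+), Gpx2 at chr12:76792333-76795554 (-), Gpx3 at chr11:54902453-54910377 (+) and Gpx4 at chr10:80047166-80056439 (+). Gpx2 overlaps Fntb on the other strand, and the sources used here do not say how strand was treated in counting.

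There were 1478 and 1014 barcodes with 6290008 and 2804929 unique molecular identifiers (UMIs, each marking 1 captured transcript molecule), and 1435 and 873 cells were kept, with medians of 3707 and 1957 UMIs. Only 2 barcodes occurred in both libraries. Casp8 had 399 and 232 UMIs and Mlkl 1 and 13 over all cells, and since 3' tags neither read the Casp8 substitution nor need lie in the deleted part of Mlkl, these counts check neither genotype. Xist had 2 and 8271 UMIs and the Y-linked Ddx3y 276 and 2, so sex cannot be told apart from genotype in any comparison below. Epithelial-like cells, named from marker genes that exclude the 9 genes and the lists used here, numbered 1182 and 584, with medians of 3897.5 and 2517 UMIs. Of 24 epithelial markers 23 were measured in them, with summed levels of 54753 and 38937 UMIs per 1 M UMIs of the class (CPM). The epithelial-like class was made of 11 clusters, and 7 of these came almost wholly from the Mlkl-null library and 4 from the Casp8-mutant library. Enterocyte markers summed to 49174 and 11182 CPM in the class (0 of 11 measured were higher and 10 lower), goblet markers to 8592 and 27200 CPM (9 of 10 higher), progenitor markers to 350.5 and 588 CPM (5 of 10 higher), granulocyte markers to 34.3 and 3289 CPM (10 of 10 higher, with Elane, Mpo, Csf3r, Mmp8 and Cxcr2 at 0 in at least 1 library) and erythroid markers to 3021 and 10479 CPM (7 of 7 higher). The part of these differences in the results below was not tested, and a change in the mix of cells cannot be told apart from a change within cells.

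In epithelial-like cells 2 of the 9 genes, Gpx2 and Gsta4, were higher in the Casp8-mutant library and the other 7 were lower, where higher or lower means at least 1.5-fold with an interval that leaves out 1. Of the 13949 genes with at least 20 UMIs in these cells, 22.7% were higher and 27.3% were lower by the same rule. The median log2 ratio, Casp8-mutant over Mlkl-null, was -1.19 for the 9 genes and -0.17 for all measured genes. Since these contrasts chose the genes, nothing is read from the count.

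**Figure D1:**
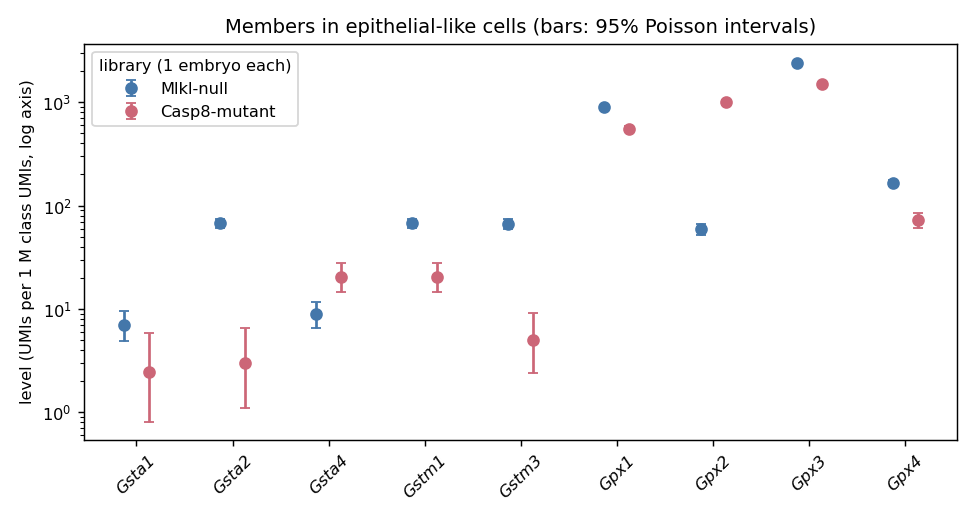
Level of each gene in epithelial-like cells (y axis, UMIs per 1 M UMIs of the class, log axis) in the Mlkl-null and the Casp8-mutant library, with 95% Poisson intervals as bars. Gpx2 and Gsta4 lie higher in the Casp8-mutant library, Gsta2 and Gstm3 show the widest gaps in the other direction, and the bars of Gpx1 and Gpx3 are smaller than their points.

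Gpx2, the gastrointestinal peroxidase, had the widest gap of the peroxidases. It had 312 UMIs in the epithelial-like cells of the Mlkl-null embryo and 2037 in those of the Casp8-mutant embryo, or 58.8 CPM (52.4 to 65.7) and 1013 CPM (969 to 1058). The level was thus 17.2-fold higher (15.3 to 19.5) in the Casp8-mutant library. The highest count in a single cell was 10 UMIs in the first library and 44 in the second, and the median cell had 0 and 1. With every cell thinned to 2000 UMIs, so that depth no longer differed, 6.56% (5.14 to 8.23, Clopper-Pearson) of 1052 cells and 60% (54.7 to 65.2) of 350 cells held a Gpx2 UMI, after 130 and 234 shallower cells were left out. Without thinning the shares were 13.4% and 56.2%. Leaving out shallow cells also changes the mix of cells. The Casp8-mutant cluster with the least Gpx2, cluster 11 below (152 CPM), had a median of 1635 UMIs. The part of this change in the thinned shares was not tested.

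Gpx1, Gpx3 and Gpx4 were all lower. Gpx1, the widespread cytosolic enzyme, had 4774 and 1115 UMIs, or 899 CPM (874 to 925) and 554 CPM (522 to 588), and was 1.62-fold lower (1.52 to 1.73). A Gpx1 UMI was found in 80.9% (78.4 to 83.2) and 66.6% (61.4 to 71.5) of thinned cells, against 90.9% and 73.8% unthinned. Gpx3, the secreted enzyme, had 12765 and 2996 UMIs, or 2404 CPM (2363 to 2446) and 1489 CPM (1437 to 1544), and was 1.61-fold lower (1.55 to 1.68). Its highest cells held 97 and 41 UMIs and its median cells 5 and 2. A Gpx3 UMI was found in 83.7% (81.4 to 85.9) and 64% (58.7 to 69.0) of thinned cells, against 95.8% and 87.7% unthinned. Thinning left out cells under 2000 UMIs, and the Casp8-mutant cluster with the most Gpx3, cluster 11 below, had a median of 1635 UMIs. The Gpx3 gap depended on which cells were called epithelial-like and on which were kept. Its log2 ratio, -0.69, was -0.52 at clustering resolution 2 and -0.08 with each library clustered alone, both under the size rule. It was -1.26 with at least 1000 genes per cell and -1.27 in thinned cells, settings that leave out cells with few genes or UMIs.

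Gpx4, the phospholipid hydroperoxide enzyme, had 880 and 146 UMIs, or 166 CPM (155 to 177) and 72.6 CPM (61.3 to 85.4), and was 2.28-fold lower (1.92 to 2.74). A Gpx4 UMI was found in 29.8% (27.1 to 32.7) and 11.1% (8.04 to 14.9) of thinned cells. Most of the 3' end of Gpx4 is not unique: 80.3% of the 90-letter words in the last 500 bases of its transcripts also occur in Gpx4-ps2, a transcribed processed pseudogene at chr10:45875291-45876086. In the same cells Gpx4-ps2 had 3756 and 485 UMIs, or 707 and 241 CPM, which is 4.27 and 3.32 UMIs for each UMI of Gpx4. The split between the gene and its copy is therefore uncertain. Both were lower in the Casp8-mutant library, and their sum, 4636 and 631 UMIs, was 2.78-fold lower (2.56 to 3.03).

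All transferases but Gsta4 were lower in the Casp8-mutant library. Gsta2, an alpha-class enzyme, had 358 and 6 UMIs, or 67.4 CPM (60.6 to 74.8) and 2.98 CPM (1.09 to 6.49), and was 20.9-fold lower (10.3 to 62.0). It was found in 13.3% (11.3 to 15.5) of thinned Mlkl-null cells and in 0 of 350 thinned Casp8-mutant cells. With the 0 set to 3 this allows a share of up to 0.857%, and the upper Clopper-Pearson bound was 1.05%. Unthinned, the shares were 22.9% and 1.03%. Gsta1, its near-identical neighbour, had only 37 and 5 UMIs, or 6.97 CPM (4.91 to 9.61) and 2.49 CPM (0.807 to 5.80), and was 2.58-fold lower (1.10 to 9.14). Of the 90-letter words at the 3' end, 77.9% of those of Gsta1 occur in another gene, chiefly Gm3776, and 30.9% of those of Gsta2 do, chiefly in Gm10639, so these counts can be split between copies. Gm3776 had 9 and 1 UMIs and Gm10639 51 and 0. With the copies added, Gsta1 was 2.71-fold lower (1.24 to 8.32) and Gsta2 23.9-fold lower (11.8 to 70.8).

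Gstm3 and Gstm1, mu-class enzymes, had 353 and 10 UMIs and 359 and 41 UMIs. Gstm3 was at 66.5 CPM (59.7 to 73.8) and 4.97 CPM (2.38 to 9.14), 12.8-fold lower (7.19 to 28.1). Gstm1 was at 67.6 CPM (60.8 to 75.0) and 20.4 CPM (14.6 to 27.7), 3.28-fold lower (2.40 to 4.70). The 2 genes had nearly the same number of UMIs in the Mlkl-null library and differed in the Casp8-mutant one. Gstm3 was found in 11.0% and 0.857% of thinned cells and Gstm1 in 10.2% and 4.29%. Gstm3 had no 3' word in common with another gene, and Gstm1 had 12.0%.

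Gsta4, the alpha-class enzyme known for its activity on the lipid aldehyde 4-hydroxynonenal, was the one transferase that was higher. It had 47 and 41 UMIs, or 8.85 CPM (6.50 to 11.8) and 20.4 CPM (14.6 to 27.7), and was 2.31-fold higher (1.48 to 3.58). The shares of thinned cells with a UMI, 2.0% (1.24 to 3.04) and 3.71% (1.99 to 6.27), had overlapping intervals. Its 3' end had no word in common with another gene.

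The genes were spread unevenly over the epithelial-like clusters. Gpx3 was highest in 1 cluster of each library: cluster 7, with 270 Mlkl-null cells led by Afp, Ttr and Folr1, at 6802 CPM, and cluster 11, with 175 Casp8-mutant cells led by Isg15 and Fabp6, at 6977 CPM. Clusters 7 and 11 are also the clusters with the highest summed distal enterocyte markers of each library, at 2538 and 3373 CPM. Elsewhere Gpx3 ranged from 476 to 2765 CPM in Mlkl-null clusters and from 415 to 745 CPM in Casp8-mutant clusters. Its levels in Mlkl-null clusters 3 and 6 and Casp8-mutant clusters 10 and 17 lay within the erythroid-like intervals of their libraries. These intervals were 379 to 735 and 248 to 681 CPM, and the part of free RNA in those levels was not tested. Gpx2 showed another order. In the Mlkl-null library it was highest in cluster 3, at 171 CPM, and in cluster 2, at 143 CPM. Cluster 2 held 81 cells led by goblet genes such as Fcgbp and Agr2 and by the defensin gene Defa24. Cluster 3 held 125 cells led by genes such as Edn1 and Hmgb2, with the highest summed progenitor markers of that library, 1122 CPM. The remaining 5 clusters lay between 6.93 and 38.6 CPM for Gpx2. In the Casp8-mutant library it was highest in cluster 17, with 195 cells led by the antimicrobial genes Reg3g and Reg3b, at 1355 CPM, and in cluster 20, with 119 cells led by nuclear RNA genes and Reg3b, at 1237 CPM. Cluster 10, led by goblet genes and by defensin genes such as Defa24, was at 547 CPM and cluster 11 at 152 CPM. Clusters 2 and 10 are called goblet below for their goblet markers, and were not split into goblet and Paneth-like cells. Thus the lowest Casp8-mutant cluster for Gpx2 lay within the intervals of the 2 highest Mlkl-null clusters, and the other 3 lay above every Mlkl-null cluster. The Gpx2 level of cluster 11 also lay within the interval of Casp8-mutant erythroid-like cells, 103 to 428 CPM. The part of free RNA in it was not tested.

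Among the transferases, Gsta2 was highest in Mlkl-null cluster 18, with 160 cells led by the apolipoprotein gene Apoa4, at 212 CPM, followed by cluster 4 at 134 CPM and cluster 12 (Fabp1 and Lct) at 107 CPM, and lowest in cluster 3 at 9.38 CPM. Gstm3 had its peak in Mlkl-null cluster 6, with 100 cells led by Dmbt1 and Mgst3, at 197 CPM, and Gstm1 in goblet cluster 2, at 167 CPM. In the 4 Casp8-mutant clusters Gsta2 ranged from 0 to 8.19 CPM, Gstm3 from 2.86 to 10.9 CPM and Gstm1 from 13.2 to 25.8 CPM. Gsta4 was highest in Casp8-mutant goblet cluster 10, at 48.7 CPM from 17 UMIs. Gpx1 varied less, from 720 to 1283 CPM in the Mlkl-null clusters and from 378 to 732 CPM in the Casp8-mutant clusters. Gpx4 ranged from 67.5 to 241 CPM and from 57.3 to 79.4 CPM.

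**Figure D2:**
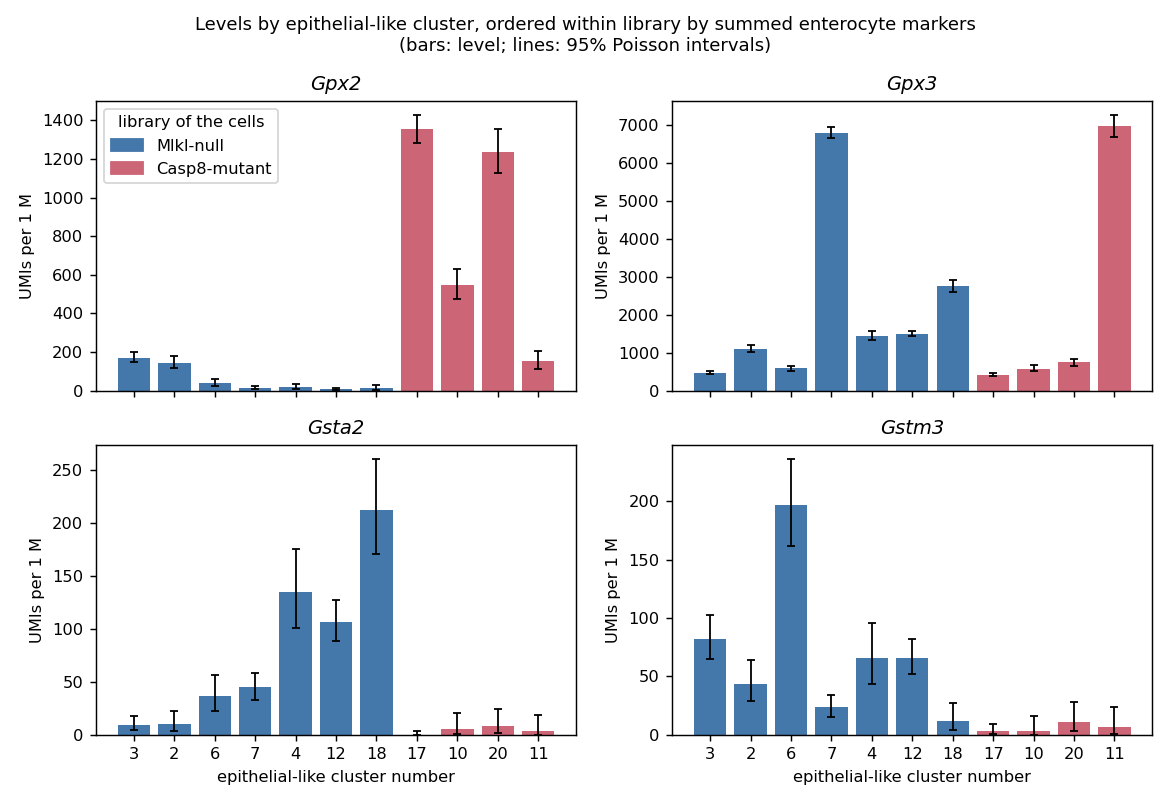
Levels of Gpx2, Gpx3, Gsta2 and Gstm3 (y axes, UMIs per 1 M UMIs of the cluster) in the 11 epithelial-like clusters (x axis, cluster number, ordered within each library by summed enterocyte markers), coloured by the library most cells came from, with 95% Poisson intervals as lines. Gpx3 peaks once in each library, at 6802 and 6977, while Gsta2 and Gstm3 stay at or below 10.9 in all 4 Casp8-mutant clusters.

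To set cells of both libraries side by side, epithelial-like cells were also grouped after each gene was scaled within its library, which gave 7 groups. Groups E0 (goblet genes and Defa24 lead, 83 and 95 cells), E2 (nuclear RNA genes, 157 and 121), E3 (123 and 170), E4 (Afp and Fabp6, 303 and 146) and E5 (Apoa4 and Fabp1, 350 and 34) held 20 or more cells from both embryos, while E1 held 161 and 14 cells and E6 held 5 and 4. E0 is called the goblet group below, and was not split into goblet and Paneth-like cells either. The groups are not matched in cell state. Summed enterocyte markers were at 12533 and 4906 CPM in E0, 70296 and 11247 in E2, 51611 and 4227 in E3, 41850 and 32121 in E4 and 103300 and 72716 in E5. Progenitor markers were at 222 and 714 CPM in E2 and at 173 and 800 in E3. The leading genes of E3, Reg3g and Reg3b, describe its Casp8-mutant cells, of which 155 came from cluster 17. Its Mlkl-null cells came mostly from clusters 6 (53 cells) and 12 (50 cells), and all Mlkl-null epithelial-like cells together held 16 Reg3g UMIs. The part of these marker gaps in the ratios by group was not tested. Gpx2 was higher in the Casp8-mutant cells of all 5 larger groups: 4.41-fold in goblet group E0 (128 and 566 CPM), 22.6-fold in E2 (50.9 and 1170), 59.1-fold in E3 (23.8 and 1455), 11.5-fold in E4 (15.2 and 176) and 39.9-fold in E5 (7.44 and 303). In E1, where the 14 Casp8-mutant cells had progenitor markers at 240 CPM against 940 in the Mlkl-null cells and goblet markers at 17035 against 1992, it was at 145 and 393 CPM. The Casp8-mutant Gpx2 levels of E1, E4 and E5 lay within the interval of Casp8-mutant erythroid-like cells, 103 to 428 CPM. Those cells should lack this epithelial enzyme, and the part of free RNA in these levels was not tested. Gpx1 was lower in E0, E3, E4 and E5, by 1.88, 2.07, 1.53 and 1.84 fold, and at 904 and 653 CPM in E2, a gap under the size rule. Gpx4 was lower in E2, E3 and E4, and at 65.6 and 59.4 CPM in E0.

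Gpx3 did not move the same way in these groups. In E4, where it was most abundant, its levels were 6493 and 6371 CPM, a ratio of 0.981 (0.931 to 1.03). In E5 it was higher in the Casp8-mutant cells, at 1787 and 6164 CPM, a ratio of 3.45 (3.05 to 3.89). Of the 34 Casp8-mutant cells of E5, 23 came from cluster 11, the Casp8-mutant cluster with the most Gpx3, whereas the Mlkl-null cells came from clusters 12 (193 cells) and 18 (150) and, for the other 7, from clusters 4 and 6, not from cluster 7, the Mlkl-null cluster with the most Gpx3. In E0 it was lower, at 1083 and 631 CPM, and in E3 it was lower too, at 1003 and 430 CPM. Both Casp8-mutant levels lay within the interval of Casp8-mutant erythroid-like cells, 248 to 681 CPM. The part of free RNA in them was not tested. The gap in the whole class therefore holds groups with opposite gaps. The share of cells in E5 was larger in the Mlkl-null library, with 350 of 1182 cells against 34 of 584. The share in E4 was nearly the same, with 303 of 1182 and 146 of 584.

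The 3 more abundant of the lower transferases did not pass in every group. Gsta2 was lower in E2 (55 and 0 UMIs), E3 (33 and 1), E4 (63 and 1) and E5 (184 and 2), and had 9 and 2 UMIs in goblet group E0. Gstm3 was lower in E0 (26 and 1 UMIs), E2 (39 and 4) and E3 (104 and 3), and did not pass in E4 (26 and 2) and E5 (54 and 0). Gstm1 was lower in E0 (97 and 9), E2 (23 and 4) and E3 (53 and 23), and did not pass in E4 (41 and 4) and E5 (48 and 0). Gsta4 passed as higher in E0, at 16.8 and 50.9 CPM (10 and 18 UMIs), a ratio of 2.96 (1.32 to 7.34). In E3 it was at 6.80 and 18.05 CPM (4 and 16 UMIs), a ratio of 2.43 (0.856 to 10.9), and the other groups had too few UMIs to be measured.

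**Figure D3:**
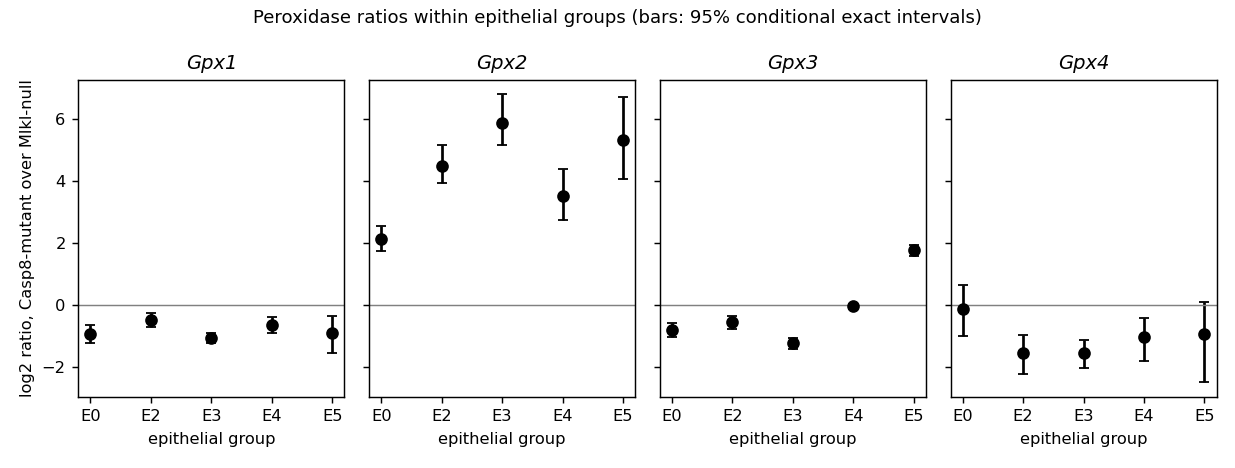
Log2 ratio of Casp8-mutant over Mlkl-null (y axis) for Gpx1, Gpx2, Gpx3 and Gpx4 in the 5 epithelial groups with 20 or more cells from both embryos (x axis), with 95% conditional exact intervals as bars. Gpx2 lies above 0 in every group, Gpx1 below 0 in every group, and Gpx3 runs from -1.22 in E3 to 1.79 in E5.

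Outside the epithelium, Gpx1, Gpx3 and Gpx4 were found in every named class, and Gsta1 and Gsta2 were nearly absent. The size-rule background there was 10.2% higher and 16.0% lower of 1696 genes in enteroendocrine or islet-like cells (38 and 35 cells), 17.1% and 12.8% of 2894 genes in myeloid-like cells (61 and 108), 11.8% and 10.3% of 2069 genes in smooth muscle-like cells (54 and 33), and 44.5% and 5.22% of 517 genes in erythroid-like cells (20 and 25). Gpx1 was most abundant in erythroid-like cells, at 3833 and 2654 CPM (272 and 106 UMIs), a gap of 1.44-fold (1.15 to 1.83) that was under the size rule. Scaling by the median of ratios moved all genes of this class by 0.76 on the log2 scale, and Gpx1 then passed as lower with a log2 ratio of -1.29 and Gpx3 with -1.07. In myeloid-like cells, of which 51 Mlkl-null cells formed cluster 15 and the other 10 Mlkl-null and all 108 Casp8-mutant cells cluster 16, Gpx1 was at 843 and 797 CPM and Gpx3 at 697 and 385 CPM, 1.80-fold lower (1.35 to 2.45). In enteroendocrine or islet-like cells Gpx1 was at 521 and 184 CPM, 2.73-fold lower (1.54 to 5.70), and Gpx3 at 1238 and 1227 CPM. In smooth muscle-like cells Gpx1 was at 318 and 301 CPM, Gpx3 at 446 and 502 CPM, and Gstm1 at 113 and 100 CPM, and none passed the size rule. The collagen genes Col1a1 and Col1a2 also led this class, and its name depended on the clustering. At resolution 2 only 10 and 1 cells had the name. At resolution 0.5 no cell did, and 63 and 58 cells were named fibroblast-like.

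Free RNA in the droplets limits what can be said of Gpx2 and Gpx3 in these classes, and in the epithelial-like clusters and groups where their levels are low. Gpx3 was at 536 and 426 CPM in erythroid-like cells, with a UMI in 75% (50.9 to 91.3) and 44% (24.4 to 65.1) of them. The Casp8-mutant myeloid-like level, 385 CPM (302 to 485), lay below the erythroid-like level of its library, with overlapping intervals. So did the Mlkl-null smooth muscle-like level, 446 CPM (357 to 550). These levels are not told apart from free RNA, and its part in the gap in myeloid-like cells was not tested. Erythroid-like cells, which should lack an epithelial peroxidase, had 0 and 9 Gpx2 UMIs. A UMI was found in 0 of 20 cells and in 36% (18 to 57.5) of 25 cells, at median depths of 3148 and 1574 UMIs. With the 0 set to 3 the first allows a share of up to 15%, and its upper Clopper-Pearson bound was 16.8%. The Casp8-mutant levels in myeloid-like (89.7 CPM, 52.3 to 144, 17 UMIs) and smooth muscle-like cells (120 CPM, 44.2 to 262, 6 UMIs) lay below the 225 CPM (103 to 428) of erythroid-like cells, with overlapping intervals. In the Mlkl-null library these classes had 1 and 3 Gpx2 UMIs. The Casp8-mutant levels are not told apart from free RNA, and its part in them was not tested. In enteroendocrine or islet-like cells Gpx2 had 9 and 25 UMIs, or 57.2 and 383 CPM, 6.48-fold higher (3.03 to 16.3), and the second level lay within the Casp8-mutant erythroid-like interval, which reached 428 CPM. Gsta1 had no UMI in any named class outside the epithelium, and Gsta2 had 1 to 4 UMIs per class in the Mlkl-null library, except 0 in acinar-like cells, and 0 in the Casp8-mutant library. Gsta4, the third alpha-class gene, had 5 and 0 UMIs in enteric neuron-like cells (42.5 CPM in the Mlkl-null library, against 8.85 in epithelial-like cells) and 7 and 12 UMIs in unnamed cluster 0, led by Slpi and Col1a1, where it was at 106 and 110 CPM. Gstm1 had 15 UMIs in 8 pancreatic acinar-like cells of the Mlkl-null library, or 381 CPM, and 0 in 2 such cells of the other library, where no comparison can be made.

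The wider glutathione system was described by lists of genes counted by the same size rule in epithelial-like cells. Of all 13949 genes measured there, 22.7% were higher and 27.3% lower. List counts near these shares, here and below, are not read as a trait of a pathway. Of 20 other glutathione transferases measured, 0 were higher, 14 were lower and 6 did not pass (median log2 ratio -1.27). By the naming rule, these included the mu-class Gstm7 (17.0 and 1.99 CPM), 7.62-fold down (3.22 to 32.0), and Gstz1, which also acts in tyrosine breakdown (32.4 and 6.96 CPM), 4.51-fold down (2.70 to 8.69). Of the 4 other peroxidase genes 2 were measured and neither passed. Of 27 genes of other xenobiotic metabolism, such as cytochromes P450 and conjugating enzymes, 0 were higher, 21 were lower and 6 did not pass (median -1.32). Adh1, an alcohol dehydrogenase, was at 146 and 9.45 CPM, 15.1-fold lower (9.85 to 25.9), and Ephx2, an epoxide hydrolase, at 84.0 and 7.95 CPM, 10.3-fold lower (6.43 to 18.6).

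Genes that make, recycle and export glutathione were mixed: 6 of 27 measured were higher, 13 were lower and 8 did not pass (median -0.47). Gsr, the reductase that regenerates glutathione, lay at 232 and 448 CPM, or 1.93-fold up (1.77 to 2.10), and G6pdx, an X-linked gene for the enzyme that supplies NADPH, at 11.9 and 25.4 CPM, or 2.14-fold up (1.45 to 3.14). Nnt, a mitochondrial NADPH source, had 283 and 19 UMIs and was 5.51-fold lower (3.55 to 9.51). Abcc2, which exports glutathione conjugates, was at 187 and 43.7 CPM, 4.24-fold lower (3.43 to 5.37). The thioredoxin, peroxiredoxin, catalase and superoxide dismutase list counted 2 higher and 1 lower gene, while 14 of its 17 did not pass (median -0.14). The 2 higher genes were Txn1, thioredoxin, at 686 and 1154 CPM, and its reductase Txnrd1, at 61.2 and 96.4 CPM, and the lower one was Cat, catalase, at 266 and 87.5 CPM, 3.03-fold lower (2.60 to 3.58).

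Targets and regulators of NRF2, the transcription factor that drives many antioxidant genes, counted 7 higher and 6 lower genes, while 9 of the 22 did not pass (median -0.06). The naming rule took Gsr and G6pdx among the higher genes. Akr1b8 (2 and 33 UMIs), Slc7a11, the cystine importer gene (4 and 17), and Abcc3 (2 and 9), named after their values were seen, had larger ratios from fewer UMIs than the rule asks for. Of the lower genes, Cbr1, a carbonyl reductase, was at 144 and 22.4 CPM, 6.36-fold lower (4.75 to 8.88), and Ugdh, which makes UDP-glucuronate, 3.35-fold lower (2.77 to 4.11). Selenoproteins and the genes of their synthesis counted 3 higher and 10 lower genes, while 8 of the 21 did not pass (median -0.57). Selenop, the plasma selenium carrier, was at 849 and 255 CPM, 3.33-fold lower (3.04 to 3.66), and Sephs2, which makes the selenium donor, 2.72-fold lower (2.36 to 3.17). Rpl30, a ribosomal protein also known to bind selenocysteine elements, was 2.18-fold higher (1.92 to 2.47), and Msrb1, a methionine sulfoxide reductase, 1.58-fold higher (1.30 to 1.90).

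Lipid peroxidation and ferroptosis genes counted 5 higher and 6 lower genes, while 4 of the 15 did not pass (median -0.51). Alox5ap, the 5-lipoxygenase activating protein gene, known from myeloid cells, had 6 and 49 UMIs, and Gch1, which starts tetrahydrobiopterin synthesis, was 1.70-fold higher (1.48 to 1.94). Lpcat3, which loads polyunsaturated lipids into membranes, was 3.15-fold lower (2.63 to 3.82), and Ftl1, the ferritin light chain, 2.22-fold lower (2.14 to 2.30). Myeloid markers summed to 306 and 657 CPM in these cells (8 of 11 measured were higher), and their part in the Alox5ap value was not tested. Oxidases that produce hydrogen peroxide, the substrate of the peroxidases, counted 9 higher and 5 lower genes, while 3 of the 17 did not pass (median 0.72). Duox2, the epithelial dual oxidase, had 0 and 120 UMIs, which with the 0 set to 3 counts is at least 106-fold higher in the Casp8-mutant library, and Duoxa2, its maturation factor, 3 and 310 UMIs, a ratio of 234 (92.5 to 1330). Maob, monoamine oxidase B, was at 758 and 60.7 CPM, 12.4-fold lower (10.4 to 15.1).

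**Figure D4:**
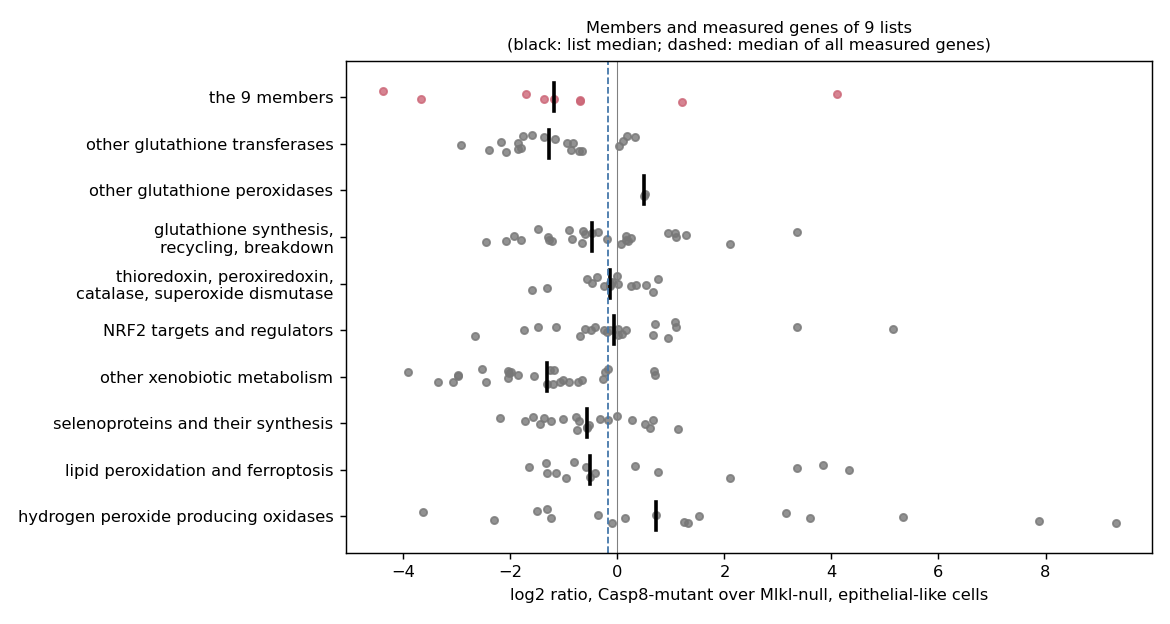
Log2 ratio of Casp8-mutant over Mlkl-null in epithelial-like cells (x axis) for the 9 genes and the measured genes of 9 lists (y axis), 1 point per gene, with list medians as black lines and the median of all measured genes, -0.17, dashed. Other transferases and xenobiotic genes lie mostly left of 0, while the oxidases reach the far right, where Duox2 stands at 0 UMIs in one library and its place depends on the 0.5 UMI added.

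The genes most like each member were taken by Pearson correlation of log2(CPM + 10) among 5759 genes over 10 points, each the sum of 1 of 5 classes in 1 library (classes of 20 or more cells per library). These points share libraries and depth, so the values are descriptions. Gpx2 was most like Ifit1, an interferon-induced gene (r = 0.968), Reg3b, an antimicrobial lectin gene (0.935), and Fabp6, the ileal bile acid binding protein gene (0.924). Gsta2 was most like Lrat, which esterifies retinol (0.980), Mme, a brush border peptidase gene (0.964), and Mcoln3 (0.959). Gstm3 was most like Hsd3b3, a steroid dehydrogenase gene (0.989). Gstm1 was most like Tcp1 (0.914), followed by Gstm2, another mu-class gene (0.909). Gpx3 was most like Fbp2 (0.971), Gpx1 like St3gal5 (0.946), Gpx4 like Arl8b (0.940), Gsta1 like Cpne8 (0.896) and Gsta4 like Sdc1 (0.858).

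Promoter sequence was looked at for the genes with the widest gaps in each direction, Gpx2 and Gsta2. RefSeq promoter entries (GRCm38.p6, 250 bases before to 50 after a start) were found for 8 of the 9 genes, all but Gsta4. The 250 bases before the start are shown for Gpx2 (chr12:76795555-76795804, minus strand) and Gsta2 (chr9:78347146-78347395, minus strand, at a start inside the annotated gene), 5' to 3' on the gene's strand, with motif matches in capitals.
Gpx2: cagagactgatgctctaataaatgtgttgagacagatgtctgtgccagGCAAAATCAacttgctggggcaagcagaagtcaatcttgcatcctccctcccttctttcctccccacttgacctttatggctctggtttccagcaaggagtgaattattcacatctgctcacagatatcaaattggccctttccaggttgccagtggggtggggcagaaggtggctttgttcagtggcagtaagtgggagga
Gsta2: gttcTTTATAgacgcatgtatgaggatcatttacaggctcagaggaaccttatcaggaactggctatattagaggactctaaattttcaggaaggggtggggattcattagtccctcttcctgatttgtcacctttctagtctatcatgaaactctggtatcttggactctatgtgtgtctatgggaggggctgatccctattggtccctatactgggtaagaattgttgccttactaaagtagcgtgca
The Gpx2 capitals match the relaxed antioxidant response element TGANNNNGC on the opposite strand, and the Gsta2 capitals match TATAAA on the opposite strand. In the same windows of 32851 promoters, TGANNNNGC was found in 41.3% and TATAAA in 13.6%. The stricter antioxidant element TGACNNNGC, every match of which is also a TGANNNNGC match, was found in 12.4% of all promoters and in none of the 12 entries of these genes. The interferon-stimulated response element core (3.44% of all), the HNF4A motif CAAAGTCCA (0.475%) and the HNF1 motif GTTAAT (7.10%) had no match in them either. The gamma-activated site TTCNNNGAA (8.30% of all) matched Gsta1, and TGANNNNGC matched Gsta1 once and Gstm3 2 times. TATAAA also matched an entry of Gstm1, on the gene's strand at -30 from the start, while the Gsta2 match lay at -246. All motifs were searched on both strands, and a match or its lack says nothing of binding.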

How the data were processed

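Per the labels' protocols, cells were freed with 0.5 mL of papain over 30 min, and each 10x Chromium 3' library was loaded with some 10000 of them. The labels name both whole and small intestine. The deposited values are raw UMI counts per gene and barcode, as the whole numbers in the files show. Cell Ranger 3.0.2, Seurat 3.0 and mm10 are named in the submitters' processing notes, and the sources used here do not say how barcodes were filtered. Of the gene IDs, 52403 had a symbol in GENCODE M21.

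Cells with under 500 genes (39 and 139 barcodes) or over 20% mitochondrial UMIs (0 and 0) and 4 and 2 Scrublet doublets were removed. Clusters came from scanpy 1.11.5 (2000 variable genes without the genes described here or their lists, 30 components, 15 neighbours, Leiden resolution 1, seed 0), without integration, and were named from marker lists by a rule revised after the clusters were seen. The epithelial groups E0 to E6 (resolution 0.5, genes scaled within library) were added after seeing the data. The genes and lists were chosen with earlier results of these data known. UMIs were summed per class and library. Ratios add 0.5 UMI to each sum, with conditional exact intervals, and levels have Poisson intervals. At this depth, ratios of genes with few UMIs have wide intervals. Cells are not replicates, so no test was made. Scripts were tested on simulated counts. List genes were named by rule: at most 2 higher and 2 lower per list, with at least 50 UMIs, by the interval bound nearest to 1. One gene that this rule names is not reported here. The genes most like each member needed at least 200 UMIs. Mlkl, Casp8, Xist and Ddx3y, and the copies of members, were looked up after the rule was written.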

Additional observations from a re-analysis of the deposited data

Results flagged for a closer look

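Gpx3 differed in opposite directions between the libraries in groups of epithelial-like cells. Its log2 ratio was 1.79 in group E5, led by Apoa4 and Fabp1, and -0.78 in goblet group E0, a gap of 2.57 on the log2 scale. In group E3, led by Reg3g and Reg3b, it was -1.22, a gap of 3.01 from E5. With 1 library per genotype these differences were not tested. Group E5 rests on 34 Casp8-mutant cells with a median of 1285.5 UMIs and 350 Mlkl-null cells with a median of 3322 UMIs. Of these, 23 of the former are from the Gpx3-rich cluster 11, and 193 and 150 of the latter are from clusters 12 and 18. Group E3 has enterocyte markers at 51611 and 4227 CPM. The groups are thus not matched in cell state. The Casp8-mutant Gpx3 levels of E0 and E3, 631 and 430 CPM, lay within the interval of Casp8-mutant erythroid-like cells, 248 to 681 CPM. The part of depth, cell state and free RNA in these gaps was not tested.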

How the results depend on the processing

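The count of 2 higher and 7 lower genes in epithelial-like cells kept within 1.5 times of those values under all 11 alternatives run on it. These were no cell filter, at least 1000 genes per cell, doublets kept, resolution 0.5, resolution 2, each library clustered alone, median of ratios scaling, cells thinned to 2000 UMIs, 2 UMIs added to each sum, a 2-fold size rule and, chosen after seeing the data, leaving out the clusters led by small nuclear RNA genes. Of 90 ratios of single genes under the 10 alternatives other than the size rule, 85 stayed past it, 5 no longer passed and 0 changed sign. The 5 were Gsta1 at resolution 2 (-1.15), clustered alone (-0.63) and thinned (-0.73), and Gpx3 at resolution 2 (-0.52) and clustered alone (-0.08), where 436 Casp8-mutant cells were named epithelial-like in place of 584. The Gpx2 log2 ratio ranged from 3.64 to 4.51, that of Gpx3 from -1.27 to -0.08, that of Gsta2 from -6.79 to -3.63 and that of Gpx4 from -1.62 to -1.11. Adding the UMIs of near-identical copies, also chosen after seeing the data, changed no call. With list genes limited to at least 50 UMIs, the higher genes fell from 6 to 3 in the glutathione synthesis list and from 5 to 2 in the ferroptosis list. Of 18 shares of cells, 9 moved by more than their interval when cells were thinned to 1500 UMIs. No paired analysis was possible because each genotype has 1 library.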

Other observations

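The pseudogene copies of the members did not all keep to the ratio of the gene they resemble. Gpx2-ps1, a processed pseudogene inside Pgm2l1 at chr7:100264675-100265245 that shares 12.4% of the 90-letter words at the 3' end of Gpx2, had 1 and 49 UMIs in epithelial-like cells, a ratio of 87.1 (22.2 to 5211) beside the 17.2 of Gpx2. Gpx4-ps2 outnumbered Gpx4 in every class and library where both were listed, from 2 UMIs per Gpx4 UMI in Casp8-mutant erythroid-like cells to 27 in Mlkl-null erythroid-like cells, where Gpx4 had 1 UMI. Outside erythroid-like cells this number lay between 2.25 and 5.14. The sources used here do not say how reads matching both a gene and its copy were counted.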
